A study of Mus musculus with 6 samples.

Results

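The genes described here encode the vacuolar proton pump (V-ATPase), the Ragulator and Rag GTPase proteins that hold the growth kinase mTORC1 at the lysosome, the lysosomal calcium channel gene Mcoln1 and the transcription factors Tfeb, Tfe3 and Mitf. They were chosen by name: every gene whose symbol begins with Atp6v0, Atp6v1 or Atp6ap and is read by a probe set naming only that gene, plus 12 listed genes. This gave 36 genes of the 19936 measured, made up of 13 V1 subunit genes, 8 V0 subunit genes, 3 accessory subunit genes, 5 Ragulator genes, 3 Rag GTPase genes, Mcoln1 and 3 transcription factor genes. No filter on low values was applied, so all 36 were tested. The gene Atp6v0c, for the main proteolipid of the proton ring, was named by no probe set of the annotation and could not be analysed. Tcirg1, for a further a subunit, falls outside this choice by its name and is given with the related genes.

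The RNA came from the colon epithelium of male mice of the C57BL/6J strain, 8 weeks old, and was measured on 6 Affymetrix arrays. Of these, 3 were from mice labelled wild type and 3 from mice labelled Sel1L-delta-IEC, in which a villin-1 promoter drives Cre, so that the loxP-flanked exon 6 of Sel1l is cut out. That promoter is active in intestinal epithelial cells, so other cells of the preparation keep the gene, and the labels do not say whether the wild type mice carried floxed alleles or Cre. Sel1L partners the ubiquitin ligase Hrd1 in endoplasmic reticulum (ER)-associated degradation, and the series title names the stress sensor IRE1alpha as a protein that this pathway removes. Whether each array stands for its own mouse is not in the labels, and the p-values therefore cover the spread among these arrays alone, which may be technical.

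The V-ATPase is a rotary pump with a cytosolic V1 sector that hydrolyses ATP and a membrane V0 sector that carries protons into lysosomes, endosomes, the Golgi and secretory granules. V0 is put together in the ER, with the accessory subunits Ac45 (Atp6ap1) and the prorenin receptor (Atp6ap2) among its partners. When amino acids are plentiful, the pump and Ragulator activate the Rag GTPases, which bring mTORC1 to the lysosome, where it phosphorylates TFEB and its relatives and keeps them in the cytosol. When they are released they enter the nucleus and drive lysosomal and autophagy genes through an E-box known as the CLEAR element. Their activity is thus set largely by where the protein is, which an array of transcripts does not measure.

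Sel1l was lower in the knockout on the log2 scale (-0.74 ± 0.11 SE, limma's adjusted p = 0.018), though its probe set was not mapped to the deleted exon. That call ended when array 1 or 2 of the wild type or array 1 or 3 of the knockout was left out, with adjusted p from 0.055 to 0.087. All 12 epithelial markers chosen for the tissue, such as Epcam and Vil1, lay above the array median of 6.34. Of markers of other cells, 3 of 6 did for fibroblasts, 1 of 4 for T cells, 1 of 6 each for neutrophils, smooth muscle and endothelium, 1 of 11 for macrophages and dendritic cells, 0 of 5 for B and plasma cells and 0 of 6 for enteric nerve and glia. Over all genes limma called 325, or 1.63% of those tested, at an adjusted p under 0.05 after Benjamini-Hochberg adjustment.

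Most genes of this machinery stayed close to their wild type level. Levels below are RMA values on a log2 scale, and changes are knockout minus wild type on that scale with limma's moderated standard error (SE). Of the 36 genes 1 was called, Atp6ap1, which was lower; 0.712% of all genes were called lower and 0.918% higher, and 0 of the 36 genes were called higher. At an unadjusted p under 0.05 there were 2 higher, Atp6v0d1 and Mitf, and 1 lower, Atp6ap1, where 7.72% of all genes were higher and 5.62% lower. The median change of the 36 genes was 0.021, against 0.019 over all genes, and the median size of a change regardless of sign was 0.074 against 0.072. The 95% interval of the change lay within 0.5 of zero for 35 of the 36 genes, as it did for 94.1% of all genes, and the exception was Atp6ap1l, whose interval reached 0.50. The called gene Atp6ap1 is among the 35, so this bound does not separate changed genes from unchanged ones. The knockout and wild type arrays did not overlap in 9 of the 36 genes, where 19.4% of all genes had no overlap. There were 4 with the knockout above and 5 with it below, where 11.4% and 7.98% of all genes were so placed.

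**Figure D1:**
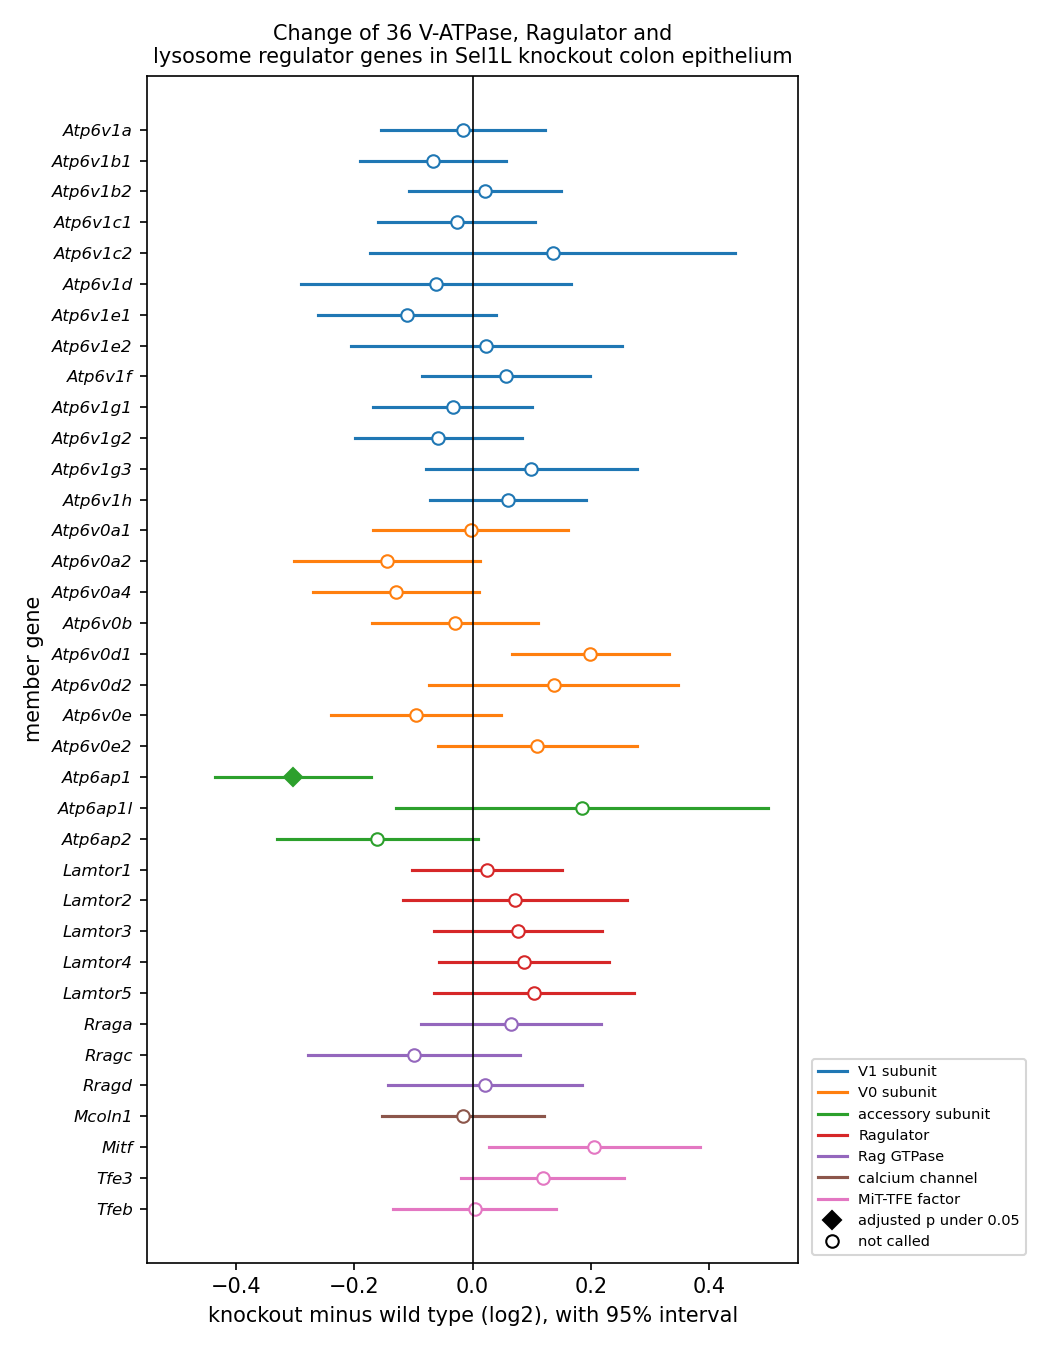
Change of each of the 36 genes in knockout against wild type colon epithelium (x axis, log2), with limma's 95% interval as a line and 1 row per gene, coloured by role; the filled diamond marks an adjusted p under 0.05. Only the interval of Atp6ap1 among the accessory subunits, and those of Atp6v0d1 and Mitf, leave out zero, and the other 33 cross it.

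The CLEAR core was looked for in the start regions of these genes, since it is the sequence through which TFEB acts, and the regions that hold it are shown beside that of the 1 called gene. RefSeq promoter windows of GRCm38.p6, running from 250 bases before to 50 bases after a gene's start, were matched by symbol for 28 of the 36 genes, in 34 windows. Both strands were searched for the letters CACGTG, for TCACGTGA, which always contains CACGTG, for TGATGNAA, the element bound by ATF4 and CHOP, and for TGACGTGG, an element bound by XBP1. The sequences below are written 5′ to 3′ on the gene's strand, with matches to any of these in capitals.
Atp6ap1, chrX:74296847-74297146, plus strand: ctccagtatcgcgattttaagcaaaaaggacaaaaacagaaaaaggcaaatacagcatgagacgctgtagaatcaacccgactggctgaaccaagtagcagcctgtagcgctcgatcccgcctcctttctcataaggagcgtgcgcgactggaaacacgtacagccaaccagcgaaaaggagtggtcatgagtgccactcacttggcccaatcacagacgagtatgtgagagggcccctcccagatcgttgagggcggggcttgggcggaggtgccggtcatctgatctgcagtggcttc
Atp6v0d1, chr8:105566015-105566314, minus strand: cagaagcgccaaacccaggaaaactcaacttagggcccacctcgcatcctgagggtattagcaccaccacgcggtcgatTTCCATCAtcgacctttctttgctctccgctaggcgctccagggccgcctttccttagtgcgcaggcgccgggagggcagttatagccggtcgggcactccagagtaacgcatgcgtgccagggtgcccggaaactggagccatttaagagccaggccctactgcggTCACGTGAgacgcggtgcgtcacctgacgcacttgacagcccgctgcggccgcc
Atp6v0e, chr17:26676368-26676435, plus strand: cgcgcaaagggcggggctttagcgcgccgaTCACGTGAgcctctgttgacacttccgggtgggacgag
Atp6v1a, chr16:44139354-44139421, minus strand: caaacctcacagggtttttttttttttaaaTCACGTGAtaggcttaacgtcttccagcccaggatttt
Mcoln1, chr8:3500443-3500510, plus strand: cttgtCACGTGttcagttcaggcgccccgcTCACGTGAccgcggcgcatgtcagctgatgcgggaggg

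For Atp6v0e, Atp6v1a and Mcoln1 the 30 bases on either side of the match are printed. TCACGTGA was present in the windows of 4 genes, Atp6v0d1, Atp6v0e, Atp6v1a and Mcoln1, or 11.8% of the 34 windows, against 0.974% of all 32851 windows in the table. It began 4 bases before the start of Atp6v0d1, 132 before that of Atp6v1a and 46 before that of Mcoln1, and lay just inside the start of Atp6v0e. The shorter CACGTG was in 8 of the 34 windows (23.5%, against 7.15% of all windows), the 4 named and those of Atp6v0b, Lamtor1, Lamtor4 and Rragc. TGATGNAA was in the windows of Atp6v0d1 and Lamtor4 (5.88%, against 3.97%). The window of Atp6ap1 holds none of the searched letters, and TGACGTGG was in 0 of the 34 windows, against 0.676% of all. The 4 genes with TCACGTGA did not move together: their changes were 0.20 for Atp6v0d1, -0.10 for Atp6v0e, -0.02 for Atp6v1a and -0.02 for Mcoln1, and none was called. Over the 238 measured genes with TCACGTGA in a window, 2 were called higher and 6 lower, with a median change of -0.0044. Over the 143 with TGACGTGG, 11 were called higher and 1 lower, with a median of 0.063. Over all genes 0.918% were called higher and 0.712% lower, with a median change of 0.019. A match is a description of these letters and not a bound site.

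The accessory subunits were the one place where a gene of the pump passed the test. Atp6ap1 encodes Ac45, a glycosylated membrane protein that is assembled with V0 in the ER. It read 10.49, 10.59 and 10.57 in the wild type arrays and 10.25, 10.23 and 10.25 in the knockout arrays. All knockout values were under all wild type values, and the 3 knockout arrays lay close together (SD 0.010, against 0.050 in wild type, n = 3 each). The change was -0.30 ± 0.058 (SE), with a 95% interval from -0.44 to -0.17 and limma's adjusted p = 0.044, which is a level 1.23-fold higher in wild type. The exact two-sided permutation p was 0.1, the smallest that 3 arrays against 3 allow. Leaving out any 1 of the 6 arrays kept the direction, with changes from -0.33 to -0.29, and ended the call, with adjusted p from 0.10 to 0.15.

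Atp6ap2, the other accessory subunit gene, encodes the prorenin receptor and read 9.99, 10.11 and 10.24 in wild type and 9.97, 9.98 and 9.91 in the knockout. The knockout arrays again lay below the wild type arrays, but the lowest wild type array was close to them, and the change of -0.16 ± 0.074 was not called (adjusted p = 0.41). Atp6ap1l, named for its similarity to Atp6ap1, read 3.15, 3.46 and 3.33 in wild type and 3.20, 3.74 and 3.54 in the knockout, which overlap. Its probe set was among the dimmest of the array, and its change of 0.19 ± 0.14 was not called (adjusted p = 0.63).

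Of 7 markers of absorptive colonocytes, 3 were called lower in the knockout, among them the proton pump gene Atp12a, and the mean log2 level of the list ran from 11.31 to 11.55 in the wild type arrays and from 10.88 to 11.07 in the knockout arrays. Of 6 enteroendocrine markers 1 was called lower, with list means of 8.07 to 8.47 in wild type and 7.69 to 8.06 in the knockout. Neutrophil markers did not share a direction: of 6, 1 was called lower, Ly6g (-1.09), and the other 5 had positive changes, with a list median of 0.066. Ly6g read 11.89, 12.15 and 11.75 in wild type and 10.57, 10.78 and 11.16 in the knockout. The other 5 lay below the array median, and whether the Ly6g signal came from neutrophils was not tested. The list means, which include Ly6g, were 5.85 to 5.94 in wild type and 5.72 to 5.92 in the knockout. Of the 12 epithelial markers 0 were called, and 6 changes were positive and 6 negative. Their list means were 11.82 to 11.95 in wild type and 11.81 to 11.89 in the knockout. Among them Slc26a3 gave -0.36, Epcam and Cdh1 each gave -0.23 and Cdx2 gave 0.28, without overlap of the groups. Slc26a3, Car1 and Krt20 are also among the 7 absorptive markers, so these lists are not independent. Tuft markers had 0 of 6 called and 6 positive changes, and goblet markers had 0 of 5 called. RMA levels have no zero, so no marker can be given as absent. The part of these cell types in the levels of Atp6ap1 and of the called genes of the related lists was not tested. In bulk RNA, fewer cells of a type and less RNA per cell cannot be told apart.

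**Figure D2:**
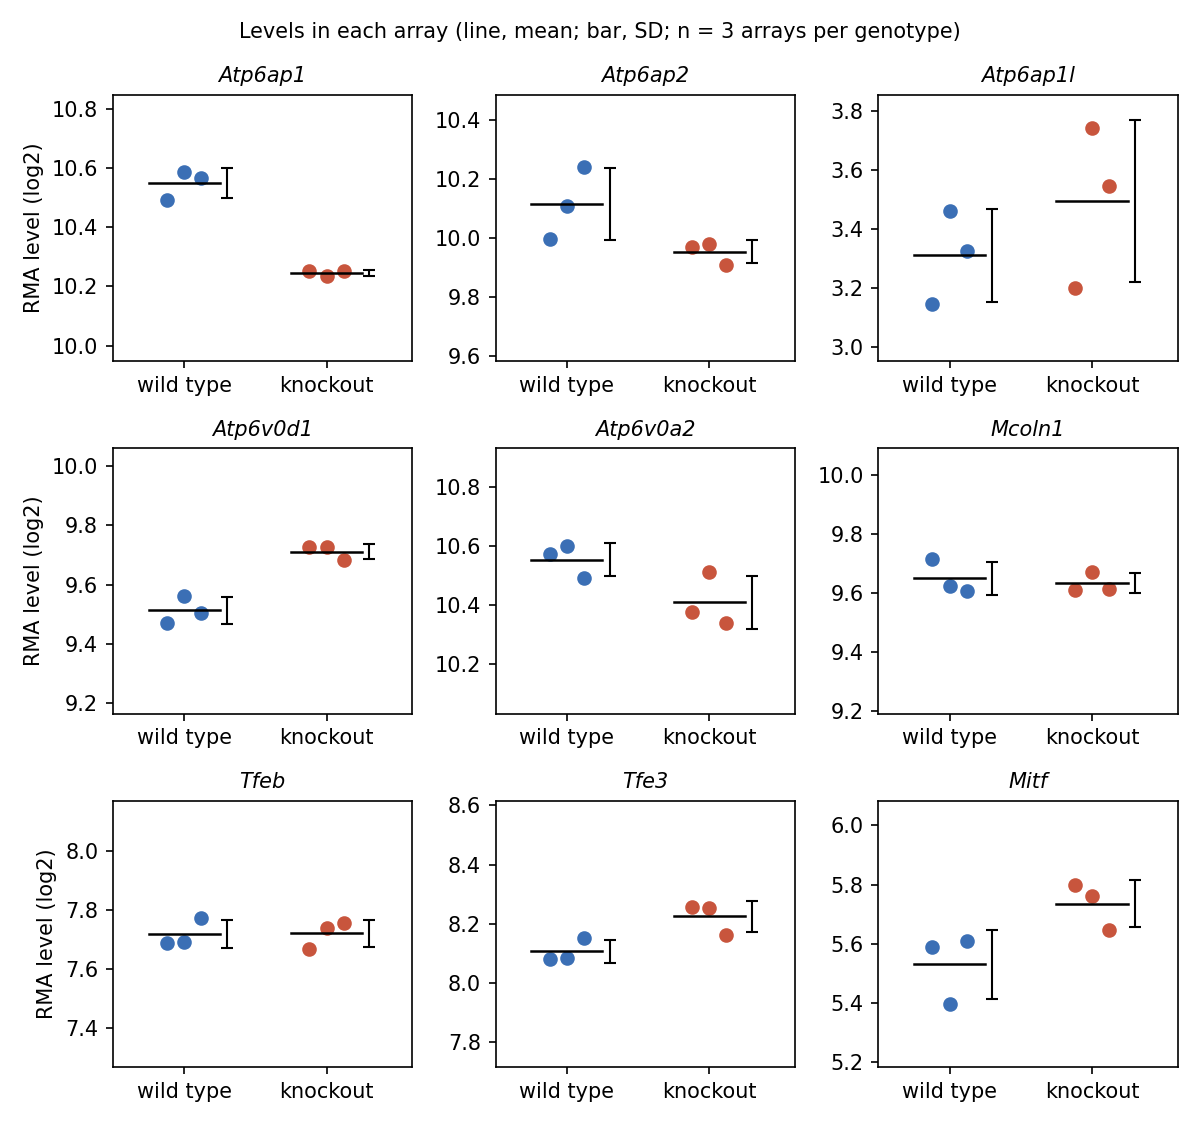
RMA level (y axis, log2) in each of the 3 wild type and 3 knockout arrays for 9 genes, each panel spanning 0.9 log2 units, with the mean as a line and the SD as a bar. The groups are set apart in Atp6ap1 and Atp6v0d1, are close but do not overlap in Atp6ap2, Tfe3 and Mitf, and overlap in Atp6ap1l, Atp6v0a2, Mcoln1 and Tfeb.

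The V0 genes gave changes in both directions, from -0.14 to 0.20, with 3 positive, 5 negative and 0 of 8 called. Atp6v0d1 encodes the widely expressed d subunit, which couples the proton ring to the central stalk of V1. It read 9.47, 9.56 and 9.50 in wild type and 9.73, 9.73 and 9.68 in the knockout, with every knockout array above every wild type array. The change of 0.20 ± 0.058 had an unadjusted p of 0.0083 and was not called over all genes (adjusted p = 0.17). Its paralog Atp6v0d2, known from osteoclasts, kidney and macrophages, had a dim probe set and overlapping groups, at 3.91, 3.64 and 3.73 against 4.01, 3.91 and 3.76.

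The a subunits hold the proton path and direct the pump to its membrane. Atp6v0a2, of Golgi and endosomal pumps, read 10.57, 10.60 and 10.49 in wild type and 10.38, 10.51 and 10.34 in the knockout. One knockout array, the second, reached into the wild type range, and the change of -0.14 ± 0.069 was not called (adjusted p = 0.42). Atp6v0a1 was at 9.98 to 10.16 in wild type and 9.99 to 10.13 in the knockout, a change of -0.0036 ± 0.072. Atp6v0a4, an isoform of acid-secreting kidney cells with a probe set below the array median, read 5.98, 5.95 and 5.96 against 5.90, 5.85 and 5.75. Its groups did not overlap, and the change of -0.13 ± 0.062 was not called (adjusted p = 0.42). The ring subunit gene Atp6v0b differed by -0.030 ± 0.061, and of the small e subunits Atp6v0e differed by -0.096 ± 0.063, without overlap of the groups, and Atp6v0e2 by 0.11 ± 0.073.

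The V1 genes stayed within a narrow range, with changes from -0.11 to 0.14, a median of -0.016 and 0 of 13 called. Their mean log2 level was 7.92, 7.91 and 7.96 in the wild type arrays and 7.93, 7.94 and 7.92 in the knockout arrays, so the groups overlapped. Atp6v1a, for the catalytic A subunit that binds ATP, differed by -0.016 ± 0.060, with a 95% interval from -0.16 to 0.12. Atp6v1b2, for the widely expressed B subunit of the same head, differed by 0.021 ± 0.056, with an interval from -0.11 to 0.15. The rotor genes Atp6v1d and Atp6v1f gave -0.062 ± 0.10 and 0.057 ± 0.062. Among the genes for stalk proteins, Atp6v1e1 gave -0.11 ± 0.066, Atp6v1g1 -0.034 ± 0.059 and Atp6v1c1, whose product joins V1 to V0, -0.027 ± 0.058. Atp6v1h, for the subunit that regulates ATP hydrolysis, gave 0.060 ± 0.058.

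Isoforms known from other tissues made up the remaining V1 genes. Atp6v1b1, the B isoform of acid-secreting cells of the kidney and inner ear, was the 1 V1 gene without overlap between groups. It read 5.13, 5.14 and 5.13 in wild type and 5.06, 5.07 and 5.07 in the knockout, a change of -0.067 ± 0.054 that was not called (adjusted p = 0.67). Atp6v1c2 had the largest spread of the V1 genes, at 5.58, 5.11 and 5.60 in wild type against 5.72, 5.51 and 5.48. Atp6v1e2, Atp6v1g2 and Atp6v1g3 differed by 0.023, -0.059 and 0.099. Of 8 V-ATPase isoforms of restricted expression, 6 had probe sets with a mean below the array median, whereas all 15 V-ATPase genes of wide expression lay above it. Probe sets bind with different strength, so this does not rank the isoforms by abundance. Markers of proton-secreting cells of the intercalated type, such as Foxi1, had 0 of 5 called, with list means of 6.05 to 6.19 in wild type and 6.16 to 6.27 in the knockout.

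**Figure D3:**
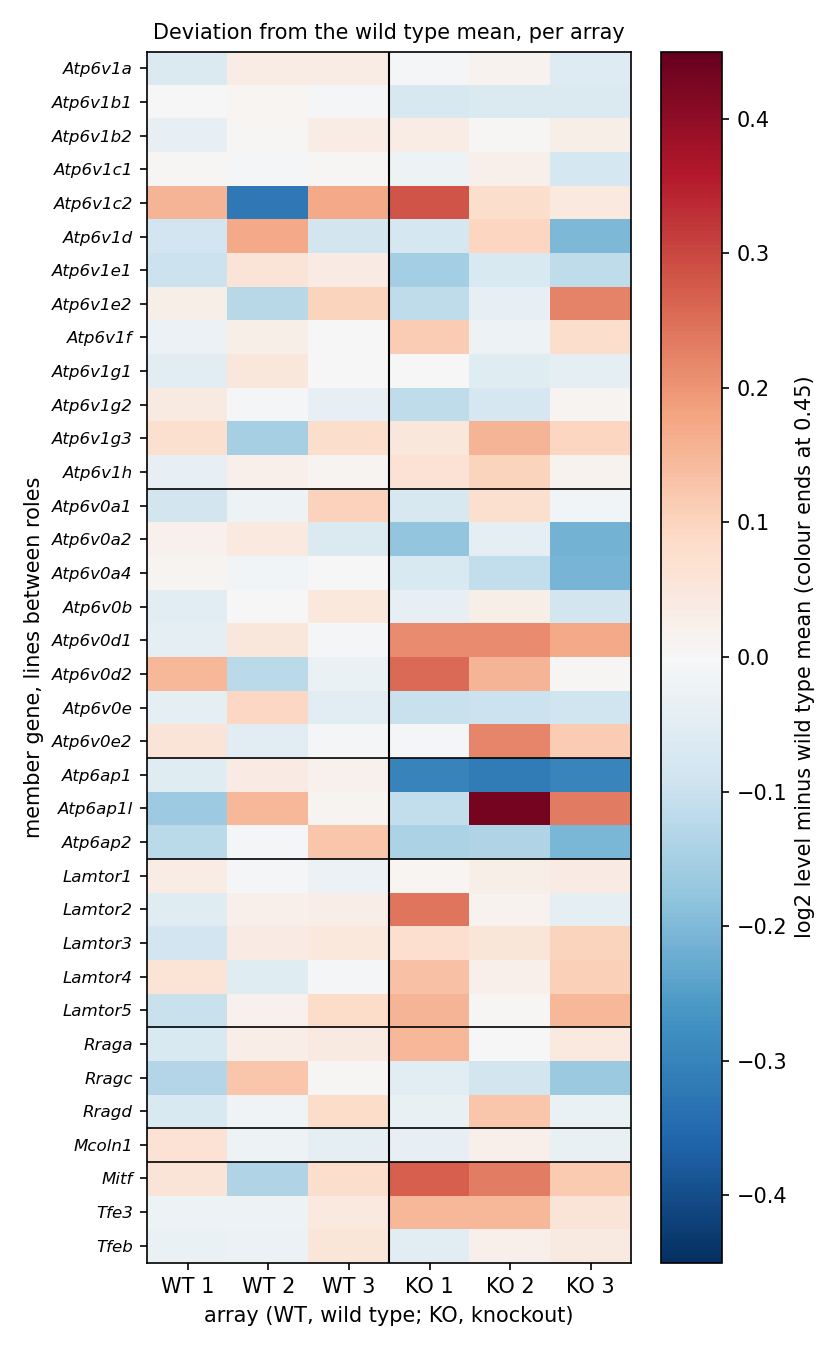
Level of each of the 36 genes in each array (columns, WT for wild type and KO for knockout) as the difference from the gene's wild type mean (colour, log2), with lines between the roles. Atp6ap1 is low and Atp6v0d1 high in all 3 knockout arrays, while most V1 rows stay pale and dim probe sets such as Atp6ap1l and Atp6v1c2 vary between arrays of a genotype.

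Ragulator is the lysosomal scaffold that holds the Rag GTPases, and Lamtor1 anchors it in the membrane. All 5 Ragulator genes had positive differences, from 0.024 to 0.10, none called, where 11399 of all 19936 genes had positive differences. The signs of the 5 held under quantile normalization and median centring. Without knockout array 1, 4 were positive and 1 negative. Lamtor1 read 8.81, 8.77 and 8.75 in wild type and 8.78, 8.80 and 8.81 in the knockout, which overlap. Lamtor3, which pairs with Lamtor2 and is also a scaffold of MAP kinase signalling, read 9.80, 9.93 and 9.94 against 9.96, 9.94 and 9.99. Its knockout arrays lay above the wild type arrays, the nearest of them by less than the spread within either group, and the change of 0.076 ± 0.062 was not called (adjusted p = 0.67). Lamtor2, Lamtor4 and Lamtor5 differed by 0.072 ± 0.083, 0.087 ± 0.063 and 0.10 ± 0.074, with overlapping groups.

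The Rag GTPases work as pairs of RagA or RagB with RagC or RagD. Rraga differed by 0.065 ± 0.066, Rragc by -0.10 ± 0.078 and Rragd by 0.021 ± 0.072, none was called, and the groups overlapped in all 3. Rragd, a gene that MiT-TFE factors are known to drive, read 4.51, 4.56 and 4.67 in wild type and 4.55, 4.71 and 4.55 in the knockout, a low signal on these arrays. Mcoln1 encodes the channel TRPML1, which releases calcium from the lysosome and so activates the phosphatase that dephosphorylates TFEB. It read 9.72, 9.63 and 9.61 in wild type and 9.61, 9.67 and 9.62 in the knockout, which overlap. Its change was -0.017 ± 0.060, with a 95% interval from -0.15 to 0.12 (adjusted p = 0.94), and the sign turned without wild type array 1.

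The 3 MiT-TFE factors are helix-loop-helix proteins that bind the same E-box, alone or in pairs with each other. Tfeb read 7.69, 7.69 and 7.77 in wild type and 7.67, 7.74 and 7.76 in the knockout, a change of 0.0034 ± 0.060 with a 95% interval from -0.13 to 0.14 (adjusted p = 0.99). The groups overlapped fully, and the sign was negative under quantile normalization and median centring. Tfe3 read 8.08, 8.08 and 8.15 in wild type and 8.26, 8.25 and 8.16 in the knockout. The groups did not overlap, though knockout array 3 came close to the highest wild type array, and the change of 0.12 ± 0.060 was not called (adjusted p = 0.45). Mitf, best known from melanocytes, osteoclasts and mast cells, read 5.59, 5.39 and 5.61 in wild type and 5.80, 5.76 and 5.65 in the knockout. Its change of 0.21 ± 0.078 had an unadjusted p of 0.029 and was not called (adjusted p = 0.30).

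Of the 36 genes, 6 had a second probe set. The second probe set of Mitf was dim, at 3.02 to 3.35 over the 6 arrays, and gave -0.071 ± 0.10, against 0.21 for the first. That of Atp6v0a2 gave 0.0053 ± 0.072, against -0.14. Those of Lamtor3 and Atp6v1g1 lay close to the first, at 0.074 and -0.026. Those of Lamtor1 and Atp6v1f gave 0.14 and -0.024, against 0.024 and 0.057, and none of the 6 was called. In the second probe set of Lamtor1 every knockout array lay above every wild type array, whereas the groups overlapped in its first. The differences of Mitf and Atp6v0a2 were thus seen in 1 of their 2 probe sets.

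Around these genes, 5 lists of related genes with 86 names in all were described, of which 80 were measured. In them 1 gene was called higher and 2 lower, where 0.918% and 0.712% of all genes were. The assembly factors and regulators of the pump had 0 of 14 called and a median change of -0.035. The smallest p among them was that of Tcirg1, the a3 subunit of lysosomal and osteoclast pumps, which read 9.09, 9.08 and 9.21 in wild type and 8.75, 9.04 and 8.93 in the knockout. Its groups did not overlap, and the change of -0.22 ± 0.085 was not called (adjusted p = 0.31). Ccdc115, an assembly factor of the ER and Golgi, gave 0.14 ± 0.11, and Mfsd8, a lysosomal membrane protein, 0.079 ± 0.065.

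Among genes that control the Rag GTPases and mTORC1, 1 of 24 was called, Sec13. It rose by 0.33 ± 0.056 (adjusted p = 0.028), from 9.57, 9.65 and 9.60 in wild type to 9.94, 9.93 and 9.95 in the knockout. Its product belongs to the GATOR2 complex that signals amino acids to mTORC1, but also to the COPII coat of vesicles leaving the ER and to the nuclear pore. Lars, a leucyl-tRNA synthetase that also senses leucine, gave 0.29 ± 0.095 (adjusted p = 0.22), and Fnip2, a folliculin partner, -0.26 ± 0.097 (adjusted p = 0.30). In the lysosome positioning list 0 of 9 were called, with Bloc1s1 at -0.24 ± 0.059 (adjusted p = 0.11), Plekhm1 at -0.24 ± 0.077 and Plekhm2 at 0.18 ± 0.068. Bloc1s1 is also a known target of IRE1alpha cleavage. Among lysosomal channels and exchangers 0 of 15 were called, with the chloride-proton exchanger gene Clcn5 at -0.25 ± 0.075 (adjusted p = 0.18), Mcoln2 at -0.13 ± 0.065 and Tmem163 at 0.16 ± 0.091.

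In the list of MiT-TFE regulators and genes known to respond to them, 2 of 18 were called lower and 0 higher, while 9 changes were positive and 9 negative, with a median of 0.0040. Lamp2, an abundant protein of the lysosomal membrane, changed by -0.38 ± 0.063 (adjusted p = 0.026), from 10.12, 10.21 and 10.13 to 9.79, 9.82 and 9.70. Ctsd, the lysosomal protease cathepsin D, changed by -0.34 ± 0.056 (adjusted p = 0.026), from 10.64, 10.63 and 10.62 to 10.29, 10.33 and 10.25. In both genes the groups did not overlap. Sqstm1, an autophagy receptor gene, gave 0.31 ± 0.067 and was not called (adjusted p = 0.068). At an unadjusted p under 0.05, 6 of the 18 were lower and 1 higher, where 5.62% of all genes were lower and 7.72% higher. The 1 higher was Sqstm1. The 6 lower were Lamp2, Ctsd, Hexa (-0.29, limma's adjusted p = 0.073), Lamp1 (-0.26, adjusted p = 0.074), Neu1 (-0.38, adjusted p = 0.085) and Ppargc1a (-0.36, adjusted p = 0.32). Of the 18 genes, 6 had every knockout array below every wild type array, where 7.98% of all genes were so placed. They are the same 6, and since a low p favours such a separation, it is not separate evidence. The calls of Sec13, Lamp2 and Ctsd ended when any 1 of the 6 arrays was left out, with adjusted p up to 0.12, 0.10 and 0.11, and each direction held. Over all genes those fits called 69 to 303, against 325 with all arrays.

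**Figure D4:**
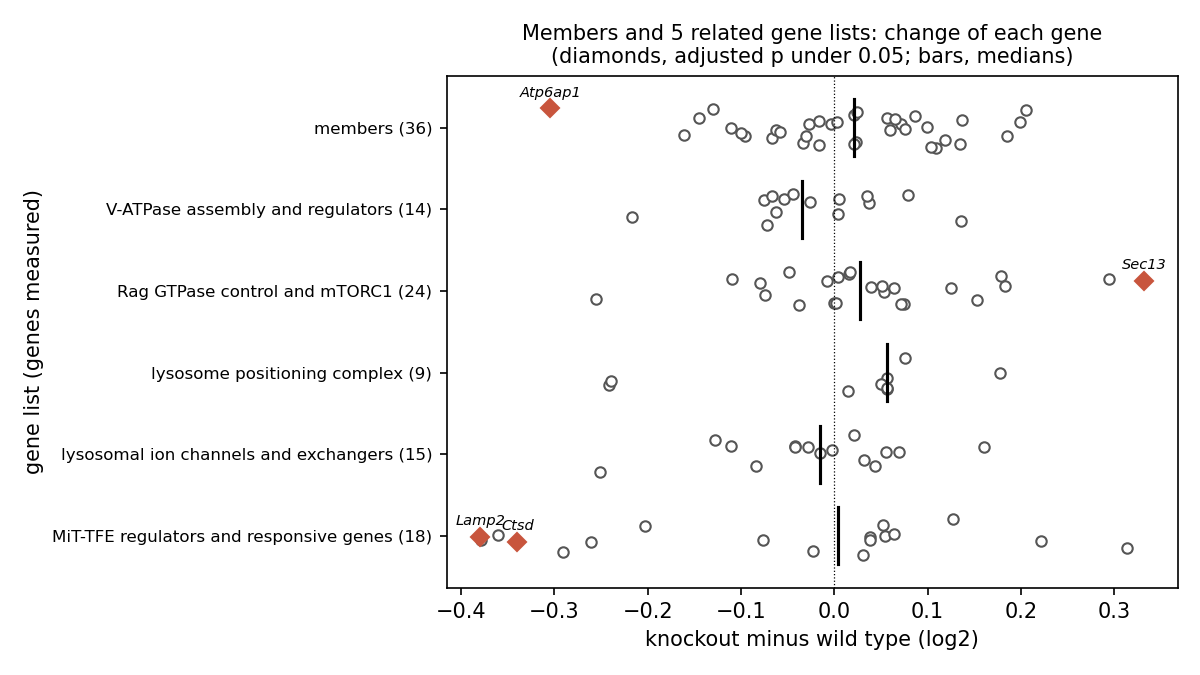
Change of each gene (x axis, knockout minus wild type, log2) among the 36 genes (top row, members) and in 5 lists of related genes, with the number measured in brackets; diamonds mark an adjusted p under 0.05 and bars the medians. The called genes are Atp6ap1, Sec13, Lamp2 and Ctsd, and the medians run from -0.035 to 0.056.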

How the data were processed

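Per the submitters' processing notes, the deposited values were made with RMA, which corrects background, normalizes between arrays and summarises each probe set. The log2 scale of the deposited values was read from their range, with array medians of 6.32 to 6.36. Which software ran RMA, how probe sets were defined and on which genome build is not given in the sources used here. Of 35556 probe sets, 21789 name 1 gene in the platform annotation and were used. Symbols were updated by gene identifier for 21698 and by accession for 3, with 88 kept, through RefSeq's table of GRCm38.p6, and no symbol of the 36 genes changed. Where a gene had several probe sets, the one brightest on average over the 6 arrays stood for it, leaving 19936 genes.

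Knockout was compared with wild type over all genes with limma's lmFit and eBayes (version 3.58.1, R 4.3.3; two-sided, Benjamini-Hochberg adjustment), checked on simulated data. Second probe sets were fitted with all 21789 together. The members and lists were chosen with earlier results of these data known. Values per array are given for genes called or at an unadjusted p under 0.05, for the 6 largest changes, and for Tfeb, Tfe3, Mitf and Mcoln1; of each related list, any called gene and up to 3 of smallest p are named, most of the uncalled with their change alone; the rest were added with their values known. Alternatives tried were the replicate number as a block, 2 normalizations, 2 filters on dim genes, 2 variance priors, array weights, 2 treatments of probe sets and each array left out. No scan or hybridisation batch was analysed here. The number of arrays limits the precision.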

Additional observations from a re-analysis of the deposited data

How the results depend on the processing

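The change of Atp6ap1 was negative in all 16 alternatives, from -0.33 to -0.29 when an array was left out, and its call held in 9 of the 10 that keep all arrays (adjusted p 0.0059 to 0.047). It ended in the replicate block (change -0.30, adjusted p = 0.11) and with each array left out, so that the count of called members was 0 there. Whether the replicate numbers pair the arrays cannot be decided from 3 arrays per genotype. Deviations of same-numbered arrays correlated at -0.10, 0.15 and 0.15, and of the 3 wild type arrays 2 correlated best with their own number. The block gave 217 called genes, against 325 without it, and 0 of the related lysosome and nutrient-sensing genes, against 3. With an array left out, 69 to 303 genes were called over all genes. Those related genes came to 6 and 8 called without the dimmest 25% and 50% of genes, to 8 with an intensity trend and to 0 to 2 with an array left out. Members at an unadjusted p under 0.05, 3 in all, came to 5 with quantile normalization and 5 with an intensity trend. The median change of the members, 0.021, was -0.0036 without the dimmest 50% of genes. With an array left out it was 0.0065 to 0.043, the highest without wild type array 3. Over all genes the median, 0.019, was 0.0028 without the dimmest 50% and 0.0083 to 0.023 with an array left out. Tfeb turned to -0.0062 with quantile normalization, -0.012 with median centring and -0.014 to 0.031 with an array left out, and Mcoln1 ran from -0.037 to 0.016. Sel1l kept its direction, from -0.87 to -0.67 with an array left out. The cause of these differences was not tested. Dim probe sets limit what can be read of Atp6ap1l, Atp6v0d2 and Rragd.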
